A study of Caenorhabditis elegans with 2 samples.

Results

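The genes nhr-23, nhr-25, nhr-85 and nhr-41 encode nuclear hormone receptors of Caenorhabditis elegans, and the sites described here are those at which the zinc-finger factor BLMP-1 was detected near them. The 4 genes, of 19973 protein-coding genes in the annotation, were taken by name, and a locus ran from 5 kb upstream of a gene's outermost transcript start to the end of its gene body. The measurement was chromatin immunoprecipitation with sequencing (ChIP-seq), made from whole larvae at stage L1, mixed sex, of strain OP109. Its genotype is unc-119(ed3) III; wgIs109, the second being the insertion that supplies BLMP-1 fused to eGFP, so the values report the tagged protein, and whole animals do not show in which cells it was bound. The series held 1 group of 2 biological replicates, with no second condition, and the control libraries were not used here. The 4 loci held 22 of the 8751 optimal summits, those that passed the authors' filter on reproducibility (irreproducible discovery rate, IDR). They held 57 of the 30000 summits called on both replicates pooled, 43 of 27310 in replicate 1 and 54 of 30000 in replicate 2, lists that include weak background calls. The optimal summits were the strongest 8751 of the pooled list. A place among them therefore does not show that a given summit was called in both replicates.

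Nuclear receptors are transcription factors with a zinc-finger DNA-binding domain, and many respond to lipid ligands. In insects, a pulse of the steroid ecdysone switches on a cascade of receptors that times each molt. The worm genes are the homologs of members of that cascade. NHR-23 is related to insect DHR3 and to mammalian ROR, NHR-85 to insect E75 and mammalian Rev-Erb, NHR-25 to insect Ftz-F1 and mammalian SF-1, and NHR-41 to insect DHR78. NHR-23 and NHR-25 are needed for worms to molt, and NHR-23 pairs with NHR-85 on DNA to pulse the microRNA gene lin-4. BLMP-1 is the worm homolog of mammalian Blimp-1, and it is known for opening chromatin at genes whose expression cycles with the molts.

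Sequence around summits (the position of highest enrichment within a peak) is shown for nhr-25 and nhr-41, to set sites of these loci beside the short patterns searched in them. Each line runs 5′ to 3′ on the forward strand of build ce11, from the RefSeq copy of that assembly, 45 bp to each side of the summit. Capitals mark AAAGTGAAA, the pattern to which BLMP-1 binds, on either strand with at most 1 mismatch, or the core receptor hexamer AGGTCA on either strand with none. The lines are the intron peak of nhr-25 ranked 148 (chrX:13009742-13009832), its intron peak ranked 182 (chrX:13009004-13009094), its peak just upstream of the gene ranked 1029 (chrX:13008260-13008350), and the peaks of nhr-41 ranked 1347 (chrIV:1383769-1383859) and 3727 (chrIV:1389202-1389292).
nhr-25, rank 148: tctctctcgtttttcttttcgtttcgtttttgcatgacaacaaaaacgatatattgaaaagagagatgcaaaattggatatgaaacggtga
nhr-25, rank 182: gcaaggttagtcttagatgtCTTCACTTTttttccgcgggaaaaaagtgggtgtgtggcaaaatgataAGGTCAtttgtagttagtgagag
nhr-25, rank 1029: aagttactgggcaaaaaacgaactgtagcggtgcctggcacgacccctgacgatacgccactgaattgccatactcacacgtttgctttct
nhr-41, rank 1347: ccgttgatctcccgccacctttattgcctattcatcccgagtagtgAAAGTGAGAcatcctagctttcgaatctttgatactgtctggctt
nhr-41, rank 3727: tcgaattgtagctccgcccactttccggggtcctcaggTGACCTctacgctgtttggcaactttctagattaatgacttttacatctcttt
The nhr-25 sites ranked 148 and 1029 hold neither pattern in these stretches. The site ranked 182 holds one of each, and the 2 nhr-41 sites shown hold one pattern each. The optimal summits of these genes that are not shown hold neither pattern within the same 45 bp. They are those of nhr-25 ranked 1577, 2566, 3628 and 7204 and that of nhr-41 ranked 5508.

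All 4 receptor genes had optimal summits, and 3 of them had many. The nhr-25 locus held 7, nhr-23 and nhr-85 held 6 each and nhr-41 held 3. Of all protein-coding genes with windows built the same way, 42.6% held at least 1 optimal summit, 7.32% at least 3, 0.711% at least 6 and 0.36% at least 7. The windows differ in length, at 10.5 kb for nhr-25, 11.6 kb for nhr-23, 11.9 kb for nhr-85 and 18.1 kb for nhr-41, and the median over all genes was 7.03 kb. Per kb, nhr-25 had 0.668 optimal summits, nhr-23 0.519, nhr-85 0.503 and nhr-41 0.165. A density at least as high was found in 0.501% of genes for nhr-25, 1.56% for nhr-23, 1.76% for nhr-85 and 20.5% for nhr-41. Set beside the 831 genes with a window 0.8 to 1.25 times as long as its own, nhr-41 was matched or exceeded in count by 23.2%, so its number of summits is not unusual for a locus of that length. The median in those genes was 1 summit.

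**Figure D1:**
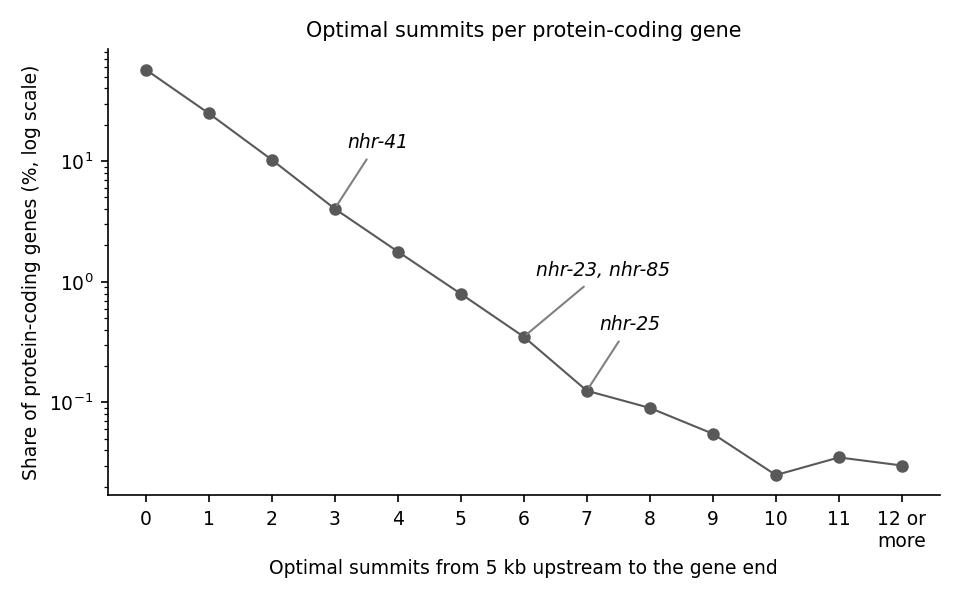
Share of 19973 protein-coding genes (percent, log scale) by the number of optimal summits from 5 kb upstream of the gene to its end, with the bins of the 4 receptor genes labelled. The share falls to 4.04% at 3 summits, where nhr-41 lies, to 0.35% at 6, where nhr-23 and nhr-85 lie, and to 0.125% at 7, the bin of nhr-25.

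Strength followed the same order between nhr-41 and the others. Ranks below count from 1 for the strongest peak of a list by the authors' peak signal. The scale of that signal is not stated, so it is compared within a list and not between lists. The best optimal summit ranked 24 at nhr-23 (pooled signal 1871), 51 at nhr-85 (1536), 148 at nhr-25 (1070) and 1347 at nhr-41 (343). The optimal list ran from a signal of 62.0 to 4255 with a median of 147. A summit among the 200 strongest lay in the windows of nhr-23 (1 summit), nhr-25 (2) and nhr-85 (2) and in none for nhr-41, beside 1.51% of all genes. In replicate 1 the best ranks were 8 at nhr-23, 12 at nhr-85, 67 at nhr-25 and 2574 at nhr-41. In replicate 2 they were 40, 101, 166 and 771 in the same order of genes. Both replicates thus gave the order nhr-23, nhr-85, nhr-25, nhr-41. The gap in rank between nhr-41 and the first 3 was much wider in replicate 1 than in replicate 2. The order of the first 3 depends on the 5 kb reach. With 2 kb upstream the best optimal ranks were 92 at nhr-85, 148 at nhr-25, 897 at nhr-23 and 3727 at nhr-41. The first place of nhr-23 thus rests on 1 upstream site, which other genes share.

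**Figure D2:**
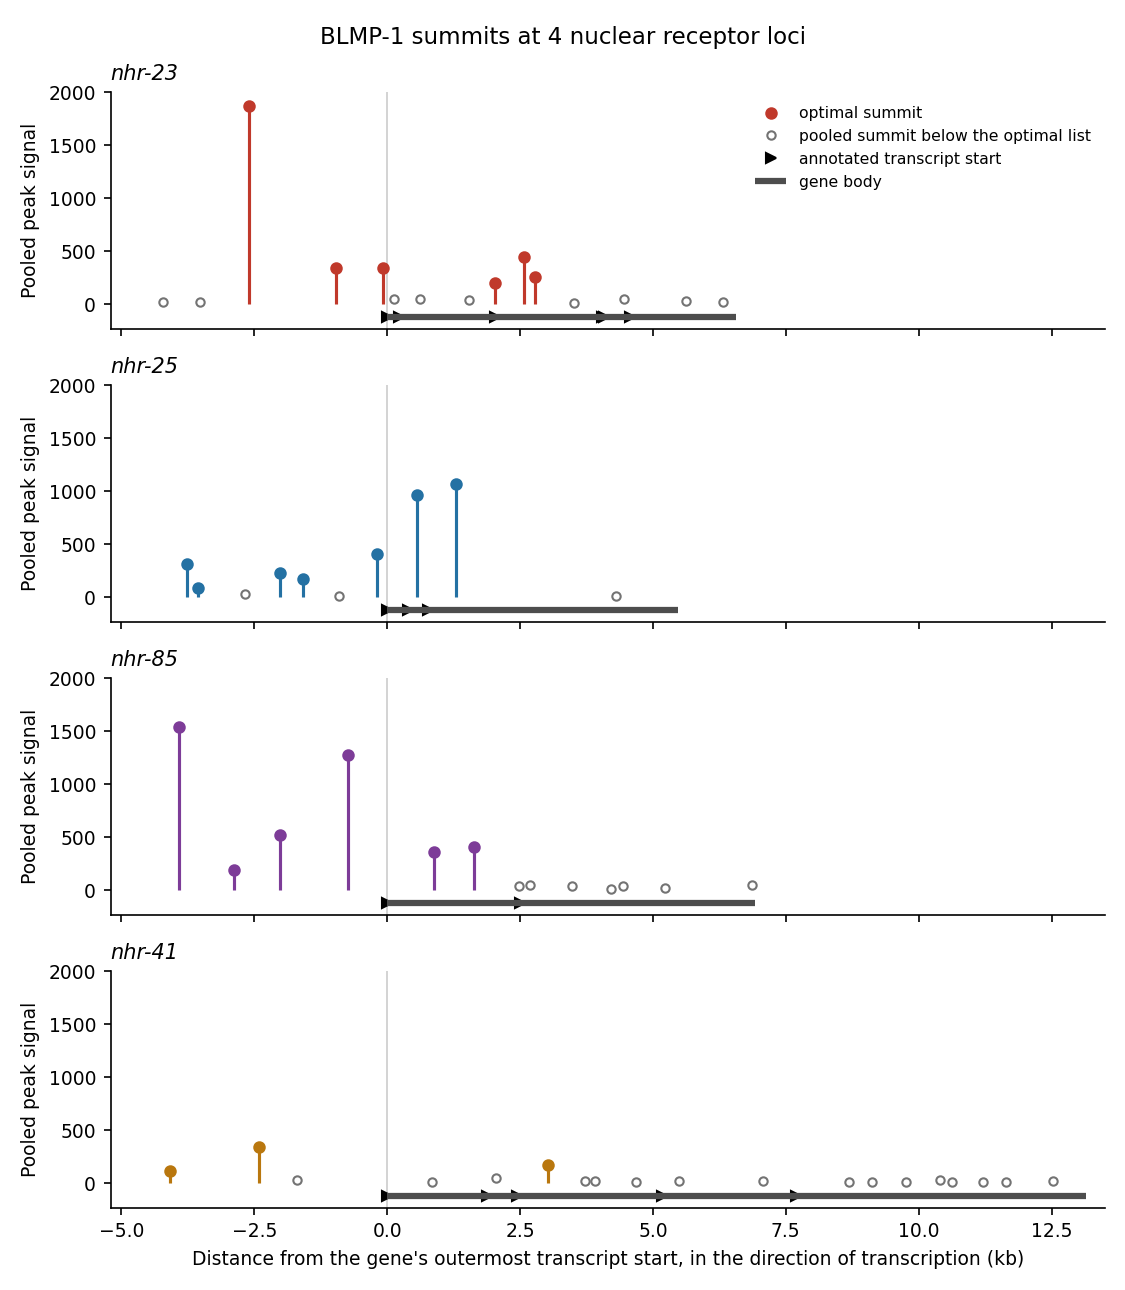
Pooled peak signal (linear axis, authors' units) of every summit at the 4 loci against distance from the gene's outermost transcript start in the direction of transcription (kb). Filled points with stems are optimal summits, open points are pooled summits below the optimal list, the bar is the gene body and arrowheads are annotated transcript starts. The tallest stems are 2605 bp upstream at nhr-23 and 3914 bp upstream at nhr-85 but inside the gene at nhr-25, and open points fill the later part of the nhr-41 gene body.

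The nhr-23 gene lies at I 7214745 to 7221299 on the forward strand and has 6 annotated transcripts, each with its own start. Its strongest summit, at 7212140 (peak 7211950 to 7212356), lay 2605 bp upstream of the first start. The signal there was 1871 in the pooled list, 776 in replicate 1 and 1114 in replicate 2, and both replicates placed the summit within 1 bp of it. This summit stood far above the rest of its locus, since the next reached 21.1% of it in replicate 1 (7217327, in an intron) and 28.0% in replicate 2 (7213789, upstream). It falls in a coding exon of the neighbouring gene C01H6.4, which is on the same strand and ends before nhr-23 begins. Its nearest protein-coding start, 1625 bp away, is that of C01H6.4. The windows of C01H6.3 and of mlt-2, which encodes a partner of the NEKL kinases in molting, also hold it. Which of the 4 genes the site serves cannot be told from peak positions.

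The other nhr-23 summits each had a start of the gene itself as their nearest protein-coding start. The summit at 7214675 (rank 1359) lay 70 bp upstream of transcript C01H6.5c.1, and that at 7213789 (rank 1330) lay 956 bp upstream of it. A group lay in introns of the longer transcripts, up to 744 bp from the start of C01H6.5a.1. It held summits 14 bp upstream of that start (7216770, rank 3060), 543 bp downstream (7217327, rank 897) and 744 bp downstream (7217528, rank 2113). The last 2 are 201 bp apart. Replicate 1 gave the intron group signals of 81.4, 164 and 70.7 in that order, and replicate 2 gave 130, 292 and 189, so the middle summit led in both. The site next to the first start had 82.6 in replicate 1 and 257 in replicate 2, and the one 956 bp upstream had 43.0 and 312, at ranks 5108 and 794. Among the matches of the 6 optimal summits, that farther site was the weakest in replicate 1 and the second strongest in replicate 2. The summits 956 and 70 bp upstream also fall in the window of C01H6.3, and those 543 and 744 bp past the start of C01H6.5a.1 in the window of cnnm-4. No optimal summit lay in the 3771 bp from there to the gene end, where the 3 shorter transcripts C01H6.5b.1, C01H6.5f.1 and C01H6.5e.1 start. In that stretch 4 pooled summits below the optimal list were called.

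The nhr-85 gene lies at I 13055201 to 13062122 on the reverse strand, with 2 annotated transcripts. It had 2 summits of similar strength upstream. The one at 13066036 (peak 13065597 to 13066240) lay 3914 bp upstream and ranked 51, with a signal of 1536 in the pooled list, 729 in replicate 1 and 831 in replicate 2. The one at 13062853 (rank 92) lay 731 bp upstream and had 1273 in the pooled list, 490 in replicate 1 and 772 in replicate 2. In both replicates the farther site was the stronger, by a wide margin in replicate 1, where the nearer reached 67.2% of it, and by a narrow one in replicate 2, where it reached 92.8%. The farther site lies between divergent genes and is 588 bp upstream of the start of hpo-2, the nearer of the 2 genes to it. All 4 upstream summits of nhr-85 fall within 5 kb of the hpo-2 start as well.

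Between these sites, summits at 13064143 (rank 652) and 13065004 (rank 3251) lay 2021 and 2882 bp upstream of nhr-85. Spacing from one optimal summit to the next ran from 754 to 1610 bp over the whole locus, so no pair was closer than that. The signals there were 181 in replicate 1 and 334 in replicate 2 at 13064143, and 106 and 79.3 at 13065004. Inside the gene, 13061243 (rank 1220) and 13060489 (rank 1005) both lay in introns of the longer transcript W05B5.3a.1. They had nearly equal signals in replicate 1, at 175 each, and 179 and 233 in replicate 2. The second of them lay 864 bp upstream of the start of the shorter transcript W05B5.3b.1. The 5288 bp beyond it held no optimal summit and all 7 of the locus's weaker pooled summits, ranked from 9453 to 27899.

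The nhr-25 gene lies at X 13008493 to 13013964 on the forward strand, and its 3 transcript starts span 773 bp. The strongest sites were inside the gene, unlike at nhr-23 and nhr-85. The summit at 13009787 (peak 13009629 to 13009971, rank 148) lay in an intron 521 bp past the start of F11C1.6b.1, with 1070 in the pooled list, 372 in replicate 1 and 692 in replicate 2. The summit at 13009049 (peak 13008890 to 13009256, rank 182) lay in an intron 163 bp past the start of F11C1.6a.1, with 966 in the pooled list, 485 in replicate 1 and 475 in replicate 2. The order of these sites differed between replicates. Replicate 1 had the summit at 13009049 first and the other at 76.7% of it, and replicate 2 had 13009787 first and the other at 68.7%, so the pair cannot be ranked from these data. The next site, at 13008305 (rank 1029), lay 188 bp upstream of F11C1.6a.2, the outermost transcript, with 407 in the pooled list, 213 in replicate 1 and 178 in replicate 2. In replicate 1 it reached 44.0% of the locus's strongest site, and in replicate 2 25.7%.

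Each of these 3 sites fell in exons of short annotated noncoding RNA genes, F11C1.16, F11C1.11, and the overlapping pair F11C1.12 and F11C1.13. That made 3 of the 22 member summits (13.6%), beside 6.08% of all optimal summits. Farther upstream the gene has no close protein-coding neighbour, and the remaining 4 summits all had an nhr-25 start as their nearest. They lay 1576 bp (rank 3628), 2013 bp (rank 2566), 3550 bp (rank 7204) and 3755 bp (rank 1577) upstream. The last 2 share one peak interval, X 13004527 to 13005022, which the authors' caller divided into 2 summits 205 bp apart, as it did for few peaks (26 of 8751 optimal entries share an interval). Replicate 1 had 1 summit there, 126 bp from one and 79 bp from the other. Replicate 2 had 2, ranked 1272 and 15082, with signals of 240 and 16.7. The summits 2013 and 1576 bp upstream had 41.9 and 65.9 in replicate 1 and 191 and 113 in replicate 2, so their order also differed between replicates.

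The nhr-41 gene, at IV 1386215 to 1399353 on the forward strand, is the longest of the 4 at 13.1 kb, with 5 annotated starts. Its summit at 1383814 (peak 1383713 to 1383927, rank 1347) lay 2401 bp upstream of Y104H12A.1a.1, its summit at 1382128 (rank 5508) 4087 bp upstream, and its summit at 1389247 (rank 3727) in an intron 591 bp past the start of Y104H12A.1c.1. The replicates differed in which site led. At 1383814 the signal was 29.7 in replicate 1, at rank 7056, and 318 in replicate 2, at rank 771. At 1389247 the signal was 78.0 in replicate 1 (rank 2574) and 98.5 in replicate 2 (rank 4426), and 1382128 had no replicate 1 summit within 100 bp. The strongest nhr-41 site was therefore the intron site in replicate 1 and the upstream site in replicate 2.

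Of the weaker pooled summits of nhr-41, 15 of 16 lay inside the gene and 13 beyond its last optimal summit, ranked from 9385 to 29242 at the locus. Of the 16, 4 had a summit of both replicates within 100 bp. At nhr-23 the weaker pooled summits numbered 9, of which 5 had both replicates, at nhr-85 7 with 3, and at nhr-25 3 with 1. The same share was not counted over all weaker pooled summits, so no difference between loci is read from these counts.

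**Figure D3:**
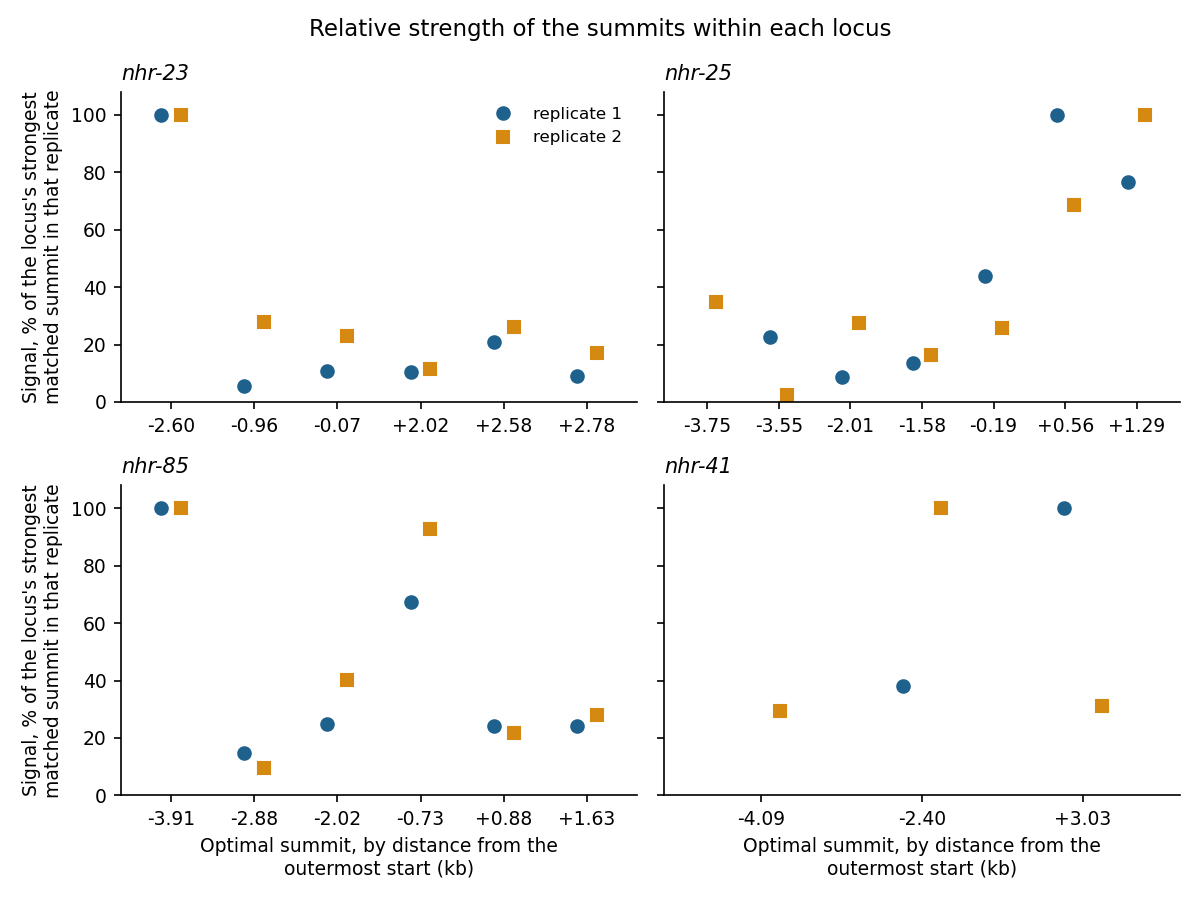
Signal of each optimal summit's matched summit in replicate 1 (circles) and replicate 2 (squares), as a percentage of the strongest matched summit of the same locus in that replicate, ordered by distance from the outermost start (kb). The leading summit is shared at nhr-23 and nhr-85 and changes at nhr-25 and nhr-41. A missing symbol means no summit within 100 bp in that replicate.

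Across the 4 loci, 20 of the 22 optimal summits (90.9%) had a summit of both replicates within 100 bp, near the 90.4% of all optimal summits. The exceptions were 13004738 at nhr-25 and 1382128 at nhr-41, both without replicate 1. Both replicates' summits lay within 10 bp for 10 of the 22 (45.5%), beside 34.3% of all. Among the strongest 8751 peaks of both replicates at once were 6 of 6 at nhr-23, 6 of 6 at nhr-85, 5 of 7 at nhr-25 and 2 of 3 at nhr-41. The share over all optimal summits was not counted for this, so these counts only describe the loci. Of the 20 matched summits, 15 ranked better in replicate 1 (75%), beside 51.6% of the 7907 matched summits of the whole list. The larger rank of the 2 exceeded the smaller by a median of 1.47 times over the whole list. The largest values among the 20, picked once seen, were 8.42 times at nhr-85's strongest summit, 9.15 at 1383814 of nhr-41 and 9.62 at 13004943 of nhr-25. Differences that large were reached by 0.86%, 0.696% and 0.556% of matched summits. Next came 6.43 at 7213789 of nhr-23 (1.48%), 5.73 at 13009049 of nhr-25 (1.92%) and 5.0 at nhr-23's strongest summit (2.67%). The smallest of the 20 was 1.07, at 13064143 of nhr-85. At 13004943 the 2 replicates' matched summits lay 102 bp from each other, because replicate 1 had a single summit in that divided interval. The value there may therefore compare different summits.

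**Figure D4:**
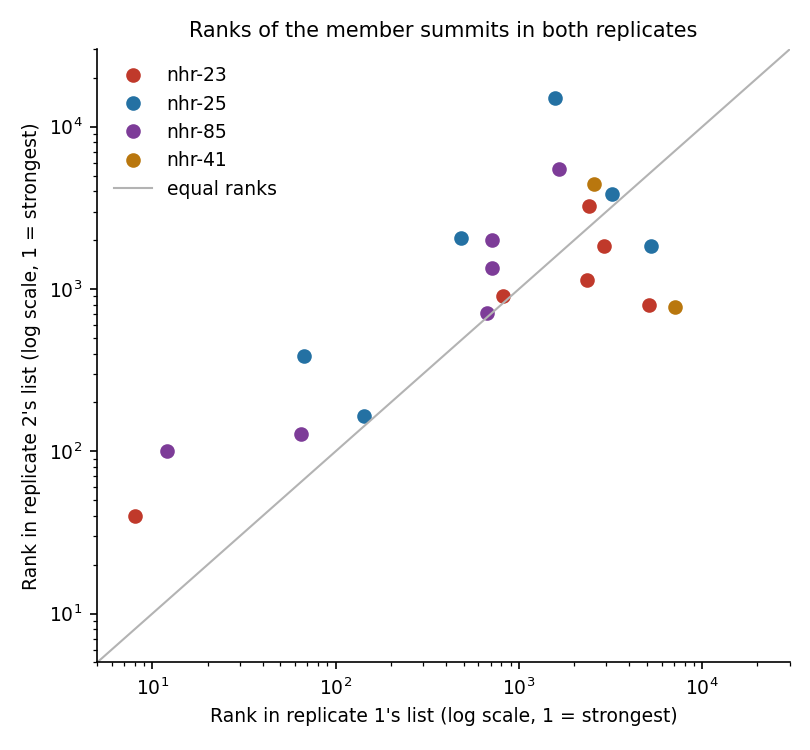
Rank in replicate 1's list against rank in replicate 2's list for the 20 member summits matched in both (log scales, 1 is the strongest), with a line at equal ranks. The 6 points of nhr-85 lie above the line, a better rank in replicate 1, and the nhr-41 point at ranks 7056 and 771 lies farthest below it.

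All 8 optimal summits inside the 4 genes lay in the first 50% of the gene body. The last one stood at 42.5% of the length at nhr-23, 23.6% at nhr-25, 23.6% at nhr-85 and 23.1% at nhr-41. Over all genes, 66.0% of the 3025 pairings of an optimal summit with a gene body that holds it were in the first 50%. The remaining 14 member summits lay upstream, 13 of them outside protein-coding genes and the strongest nhr-23 site in the coding exon of C01H6.4. Of the 22, 4 were within 500 bp of a protein-coding start, 2 at nhr-23 and 2 at nhr-25. For 19 of the 22 the nearest such start was that of the receptor gene itself. The exceptions were the strongest nhr-23 site and the 2 farthest upstream of nhr-85. That count is partly set by windows built around these genes. Neither count was made over all optimal summits, so neither is read as a trait of these loci.

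The share of these summits with the BLMP-1 pattern was near that of all optimal summits, and 22 summits are too few to place it more finely. Within 75 bp of a summit, AAAGTGAAA on either strand, 1 mismatch allowed, was found at 6 of the 22 (27.3%), beside 32.0% of all optimal summits and 19.3% of equal windows 500 bp to either side. By rank in the pooled list, the 6 were the strongest summits of nhr-23, nhr-85 and nhr-41 and the second strongest of nhr-85 and nhr-25, with 1 more at 13004738 of nhr-25. The nearest match was centred 5 bp from the nhr-41 summit at 1383814, 19 bp from the leading nhr-23 summit and 21 bp from 13009049 of nhr-25. An exact match was found at none of the 22, which allows a share of up to 13.6% (3 counts of 22, counting error only), beside 5.42% of all optimal summits. The hexamer AGGTCA, to which several nuclear receptors bind, was searched once the summits were known. It was present at 6 of the 22 (27.3%), with 3 at nhr-85 and 1 at each of the other genes, beside 8.96% of all optimal summits and 4.25% of flanking windows. The 2 patterns share no bases in the sequences shown. A match is a string of letters and not a measured contact, and with 22 summits at 4 genes these shares are a description.

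Other genes of the molting cycle were read from lists with the same window. Of 18 regulators of molting and larval timing, 16 (88.9%) had an optimal summit, with a median of 4.5 summits. The best were kin-20 (casein kinase, rank 16, 8 summits), nhr-91 (related to insect DHR4, rank 21, 7 summits) and lin-41 (a target of the microRNA let-7, rank 129, 1 summit). None was found at nhr-67 or at blmp-1, whose locus is taken up below. Of 20 genes that carry out or assist the molt, 18 (90%) had one, led by noah-2 (rank 9), which encodes a matrix protein, mlt-2 (rank 24) and noah-1 (rank 28), and bli-5 and mlt-4 had none. The summit of mlt-2 is the nhr-23 site described above, counted for both genes. Of 14 other conserved receptors 9 (64.3%) had one, led by nhr-91, daf-12 (the dafachronic acid receptor, rank 152, 8 summits) and nhr-35 (rank 726). There fax-1, nhr-6, nhr-67, nhr-111 and unc-55 had none. These shares stand beside the 42.6% of all genes, and the lists have longer windows, with medians of 11.3, 9.52 and 9.97 kb against 7.03 kb. The lists overlap, since nhr-91, daf-12 and nhr-67 are in 2 of them.

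**Figure D5:**
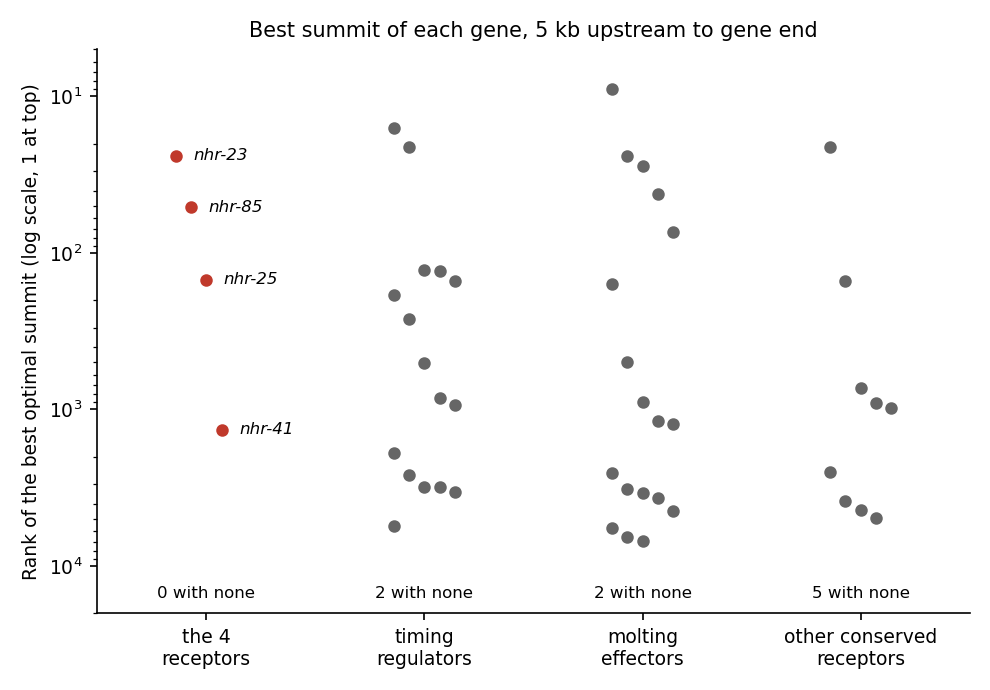
Rank of the best optimal summit (log scale, 1 at the top) of the 4 receptor genes and of the genes of 3 lists, with the number of genes that had none printed below. The points for nhr-23, nhr-85 and nhr-25 at ranks 24, 51 and 148 are better than the medians of the genes with a summit, 674 for timing regulators, 1205 for molting effectors and 976 for conserved receptors, and nhr-41 at 1347 is not.

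Among the 265 other genes named nhr, 140 (52.8%) had an optimal summit, 33 (12.5%) had at least 3 and 8 had at least 6. With 7 summits each, nhr-91, nhr-31 and nhr-27 had the most, the last over a window of 107.8 kb. Genes closest to each receptor gene were found over 8499 genes with an optimal summit, by distance over 3 standardised measures (number of summits, best signal and window length, all log2). They were qua-1 (a hedgehog-related protein needed for molting) and nhr-91 for nhr-23 (distances 0.382 and 0.39), ztf-16 and klf-1 for nhr-25 (0.315 and 0.468), qua-1 and nhr-19 for nhr-85 (0.434 and 0.441), and chd-7 (a chromatin remodeller) and mvk-1 (mevalonate kinase) for nhr-41 (both 0.231). For nhr-23 the nearest had 6 summits with a best rank of 42 at qua-1, and 7 with a best rank of 21 at nhr-91.

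The native blmp-1 gene had no summit within 20 kb in the optimal, pooled or either replicate list, weak background calls included. Whether the authors left that region out of their calling is not stated in the sources used here. Its lack of a summit is therefore not read as a lack of binding. The unc-119 gene had 3 optimal summits within 20 kb, the best at rank 3669. Nothing in the peak lists measures the level of the tagged protein. Read depth is unknown here, so a site without a summit was not detected by the authors' calling, which does not show that BLMP-1 is absent there.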

How the data were processed

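BLMP-1 ChIP-seq peak lists of 2 samples, replicates 1 and 2 of 1 group per the labels, were analysed on build ce11 (WBcel235). The authors deposited, per the file names and listings, peaks with background calls for each replicate and for both together, made as input for IDR, and an optimal list that passed it. The deposited peak signal is the value of the authors' caller. The aligner, caller and IDR threshold were not given in the sources used here. All 8751 optimal peaks were the strongest 8751 of the pooled list.

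Summits (start plus offset, given 1-based) were counted from 5 kb upstream of each gene to its end, with gene models of Ensembl release 115. Equal signals were ordered by position, and summits matched within 100 bp. With 1 group, no test was made. Named were every optimal summit of the 4 genes, genes in or nearest to which one lies, the 3 best-ranked genes and those without a summit in each list, and the 2 nearest genes per receptor. Other nhr genes and genes with overlapping windows were named after their values were seen. The members and lists were chosen with earlier results of these data known. Alternatives are given at the end. The ce10 lists were not used. The counting and pattern search were tested on simulated data. Python 3.11.15, numpy 2.4.6, pandas 2.3.3 and matplotlib 3.10.9 were used.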

Additional observations from a re-analysis of the deposited data

How the results depend on the processing

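With the gene body alone, 3 optimal summits remained at nhr-23, 2 at nhr-25, 2 at nhr-85 and 1 at nhr-41, the best ranks were 897, 148, 1005 and 3727 in that order, and 8.89% of all genes had a summit. With 2 kb upstream, nhr-25 had 4 summits, nhr-85 3 and nhr-41 1, and the best rank was 897 at nhr-23 and 3727 at nhr-41. Counting a summit only for its nearest start left 4 at nhr-85. The strongest 4375 optimal peaks left 2 at nhr-41 and 26.2% of all genes with a summit. Leaving out a replicate, with the 8751 strongest peaks of the remaining one, gave 6 to 7 summits at nhr-23, 6 to 7 at nhr-25, 6 to 8 at nhr-85 and 3 at nhr-41. Best ranks then ran from 8 to 40, 67 to 166, 12 to 101 and 771 to 2574. Exact AAAGTGAAA matches were 0 at each gene. Within 150 bp the pattern was at 2 summits of nhr-23 and 3 of nhr-25, and within 50 bp at 1 of nhr-25 and 1 of nhr-85. For the lists, the gene body alone, added after the data were seen, left 5 of 20 molting genes and 6 of 14 conserved receptors. The remaining 68 of 95 alternative values moved by less than 1.5 times, or, for ranks, by less than the SD of the 2 replicates. Where a replicate was left out, that SD comes from the same ranks being compared. A small move was then likely in advance and is a weak check. No paired analysis was possible because there is 1 group. Depth is unknown and limits what an absent summit means.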

Other observations

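Sites beyond the 5 kb limit were present upstream of the 2 genes with no near protein-coding neighbour. At nhr-25, summits lay 5051 bp (rank 6024), 5259 bp (rank 846, X 13003080 to 13003347) and 7159 bp (rank 6125) upstream, all intergenic with an nhr-25 start as their nearest. That at 5259 bp ranks above the 6 optimal summits between it and the gene start. At nhr-41, 1 more lay 8426 bp upstream (rank 8349).

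Summits of a single replicate with no pooled summit within 100 bp numbered 3 in replicate 1 (2 at nhr-85, 1 at nhr-41) and 8 in replicate 2 (3 at nhr-23, 2 at nhr-25, 1 at nhr-85 and 2 at nhr-41).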
